A study of Mus musculus with 2 samples.

Results

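Oxidative phosphorylation genes encode the respiratory chain and the ATP synthase of the mitochondrial inner membrane. They were taken as the protein-coding genes whose symbols follow the usual names of the subunits of complexes I to V: Nduf a, b, c, s and v, Sdh a to d, Uqcr, Cox 4 to 8, Atp5, and the mitochondrial mt-Nd, mt-Co, mt-Cytb and mt-Atp genes. The rule used names and biotypes only and no measured value. It gave 106 of the 43346 genes in the tables, 93 encoded in the nucleus and 13 in mitochondrial DNA. It also took 8 assembly factors of complex I (Ndufaf1 to Ndufaf8) and Atp5s, which is not a subunit, so 97 members are structural subunits. The rule leaves out Cyc1, the cytochrome c1 subunit of complex III, and cytochrome c itself, both described at the end.

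The libraries were RNA-seq of midbrain from B6NCrl mouse embryos at embryonic day 11.5. There was 1 group, of mixed sex and with no treatment or genotype contrast, with 2 biological replicates, a pool of 109 embryos for replicate 1 and a pool of 88 embryos for replicate 2. RNA of individual embryos was therefore not resolved. The question these data can answer is how high each gene stood within a library and how far the pools differed. With 2 libraries the smallest two-sided p of an exact sign-flip test is 0.5, and levels are therefore given without a p.

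Electrons from NADH enter the chain at complex I and those from succinate at complex II, pass over ubiquinone to complex III and over cytochrome c to complex IV, and reduce oxygen. Complexes I, III and IV pump protons, and complex V, the ATP synthase, uses their return to make ATP. Complex II is wholly nuclear-encoded, whereas the other complexes join nuclear subunits to subunits made inside the organelle. The mitochondrial genes lie close together in long transcripts that are cut, for the most part, at the tRNAs between them.

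The gene tables held 38884247 expected counts on genes in replicate 1 and 45975100 in replicate 2. Levels below are TPM, which can be compared between genes. TPM divide counts by a gene's effective length and scale each library to the same total. Effective length is shorter than gene length, by relatively more in short genes, so levels of short genes depend most on it. In replicate 1 mt-Atp8 (204 bases) had 5633 TPM from 15834 counts, and mt-Nd5 (1824 bases) had 297 TPM from 13721 counts. Spike-in RNAs took 15.2% of TPM in replicate 1 and 14.8% in replicate 2, which lowers every gene alike. The 5 midbrain markers were all at 1 TPM or more, with Otx2 at 169 and 171 TPM in replicates 1 and 2. Markers of neurons (4 of 4), progenitors (4 of 4) and endothelium (5 of 5) were present too, and the 5 erythroid markers summed to 12937 and 13009 TPM in replicates 1 and 2, led by the embryonic globin Hbb-y. Every level here is an average over these cell types, and fewer cells of a type and less RNA per cell cannot be told apart.

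Some members share sequence with a neighbour or with a pseudogene, which bears on how reads were divided among rows, so those sequences are shown before the values. The mt-Atp8 and mt-Atp6 genes overlap by 43 bases of mitochondrial DNA. The end of mt-Atp8 (mm10 chrM:7910-7969, plus strand) and the start of mt-Atp6 (mm10 chrM:7927-7986, plus strand) are given with the shared bases in capitals.
mt-Atp8: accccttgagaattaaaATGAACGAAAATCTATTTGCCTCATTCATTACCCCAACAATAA
mt-Atp6: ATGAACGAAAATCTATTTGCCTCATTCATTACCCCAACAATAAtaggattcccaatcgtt
Of the 13 mitochondrial genes, 9 aligned to an annotated pseudogene in the nuclear genome over at least 100 bases at 95% identity or more. The matches that held nearly all of the copies' counts lay together on chromosome 1 (minus strand). Gm10925 matched mt-Atp6 over 678 bases, Gm28661 matched mt-Co2 over 681, Gm28437 matched mt-Co3 over 783 and Gm10222 matched mt-Nd4l over 294, each with 0 mismatches. Gm28438 differed from mt-Nd3 at 1 of 345 bases and Gm29216 differed from mt-Co1 at 1 of 483. The stretch around each difference is given with the differing base in capitals, for mt-Nd3 (mm10 chrM:9459-9518, plus strand), Gm28438 (mm10 chr1:24613060-24613119, minus strand), mt-Co1 (mm10 chrM:6390-6449, plus strand) and Gm29216 (mm10 chr1:24616129-24616188, minus strand).
mt-Nd3: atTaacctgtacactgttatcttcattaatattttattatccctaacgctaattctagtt
Gm28438: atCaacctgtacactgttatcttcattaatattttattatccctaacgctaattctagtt
mt-Co1: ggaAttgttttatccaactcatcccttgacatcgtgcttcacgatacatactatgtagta
Gm29216: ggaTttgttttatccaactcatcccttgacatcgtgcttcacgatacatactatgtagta
Counted from 1 at the 5′ end of the mitochondrial gene, the differences are T3C in mt-Nd3 and A1066T in mt-Co1. A read that does not cross such a base could be placed on either row, so for these genes the deposited split between member and copy is not a measurement of 2 separate RNAs.

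Nearly all members were present, and most were abundant. At 1 TPM or more in both libraries stood 102 of 106 members, all 13 mitochondrial genes and 89 of the 93 nuclear genes. Of all genes listed, 32.1% passed, and over the 21474 protein-coding genes 58.2%. At 100 TPM or more in both libraries stood 86 of 106 members, against 6.77% of protein-coding genes. The median member had 251 TPM in replicate 1 and 272 TPM in replicate 2, against 18.3 and 18.4 TPM for the other 12394 protein-coding genes detected. The 4 members not detected were Cox6a2, Cox7b2, Cox8b and Cox8c, all alternative forms of complex IV subunits.

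**Figure D1:**
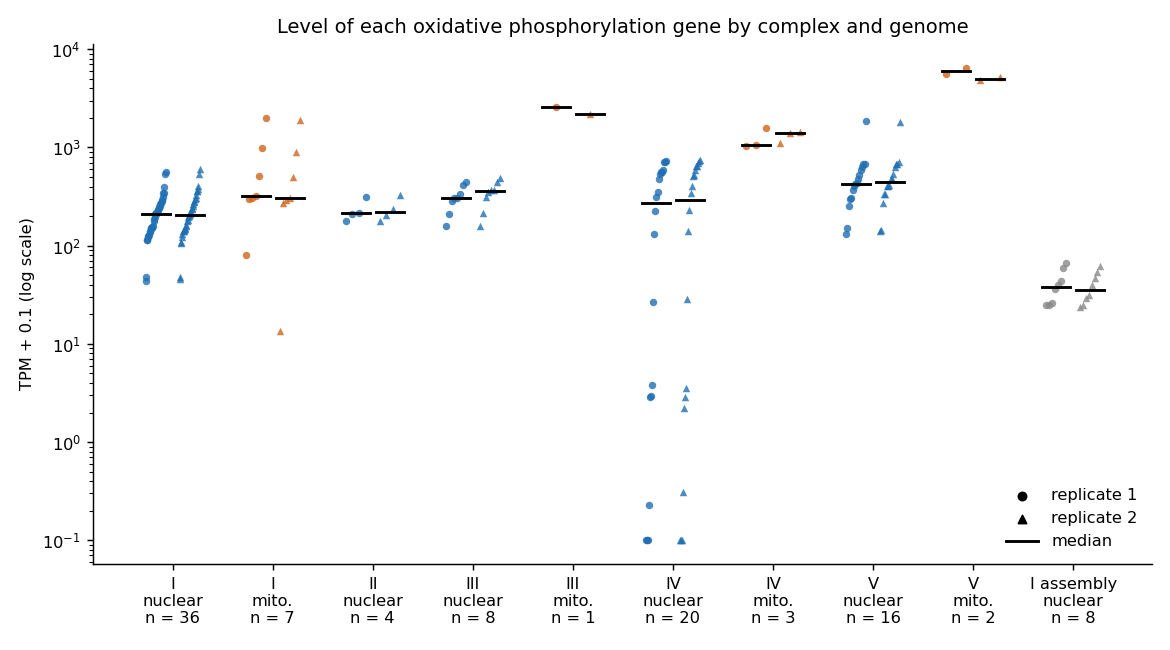
Level of each member by complex and genome, as TPM + 0.1 on a log axis, with 1 point per gene for replicate 1 (circles) and replicate 2 (triangles) and a bar at the median. Blue marks nuclear subunits, orange mitochondrial subunits and grey the complex I assembly factors. By deposited TPM, without regard to intervals, the mitochondrial subunits of complexes III, IV and V sit at 1034 TPM or above, higher than all nuclear subunits of their complexes. Those of complex I span 13.3 to 1987 TPM.

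Complex I, the NADH dehydrogenase, had 36 nuclear structural subunits, with a median of 212 TPM in replicate 1 and 207 TPM in replicate 2. The 7 nuclear core subunits, which carry the flavin and iron-sulfur centres, had medians of 153 and 158 TPM in replicates 1 and 2. They lay below the 29 accessory subunits, whose medians were 215 and 222 TPM. Among the core, Ndufv2 was highest (252 and 265 TPM in replicates 1 and 2). Ndufs7 (159.8 and 176 TPM), Ndufs3 (153 and 158 TPM), Ndufv1, the flavin-binding subunit (137 and 139 TPM), and Ndufs8 (125 and 141 TPM) were close to each other. Ndufs1, the large iron-sulfur subunit, was lowest in both libraries (115 and 106 TPM). Among the accessory subunits, Ndufc1 (565 and 604 TPM), Ndufab1, the mitochondrial acyl carrier protein (542 and 533 TPM), and Ndufa12 (397 and 408 TPM) led. Over transcripts annotated as protein-coding alone, Ndufc1 had 278 and 301 TPM and Ndufab1 had 296 and 277 TPM. By that measure Ndufa12 (395 and 405 TPM) and Ndufb9 (344 and 358 TPM) were above both. By all transcripts together, the lowest accessory subunits were Ndufb4 (48.1 and 47.95 TPM) and Ndufa11 (43.6 and 45.8 TPM). Every other nuclear subunit of complex I was then above 100 TPM in both libraries. On protein-coding transcripts alone Ndufa5 had 11.8 and 8.24 TPM and Ndufa10 had 43.7 and 40.8 TPM. The 8 assembly factors, which help build the complex and leave it, were all detected but low, with medians of 37.9 and 35.5 TPM and none at 100 TPM. Ndufaf2 was the highest of them (65.9 and 62.5 TPM) and Ndufaf7, a methyltransferase, was the lowest by mean (25.7 and 23.6 TPM).

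Complex II, the succinate dehydrogenase, had its 4 subunits within a narrow range. Sdhb, the iron-sulfur subunit, had 314 and 325 TPM in replicates 1 and 2, and Sdha, the flavoprotein, had 178 and 178 TPM. The membrane anchors Sdhc (217 and 237 TPM) and Sdhd (209 and 203 TPM) lay between them. The order of the 4 was the same in both libraries.

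Complex III, the cytochrome bc1 complex, had 8 nuclear members with medians of 306 and 358 TPM in replicates 1 and 2. Small subunits were highest, with Uqcrq at 449 and 487 TPM, Uqcr10 at 417 and 440 TPM and Uqcrb at 339 and 365 TPM. Uqcr11 (308 and 366 TPM) and the hinge protein Uqcrh (305 and 350.5 TPM) were next among them. The larger subunits were lower, namely the core proteins Uqcrc1 (288 and 314 TPM) and Uqcrc2 (159 and 158 TPM) and the Rieske iron-sulfur protein Uqcrfs1 (208 and 213 TPM). In both libraries all 5 small subunits were above Uqcrfs1 and Uqcrc2. TPM divides by effective length, so this order is not one of read numbers. Uqcrc1 had 11823 and 15434 counts, more than Uqcrq with 4201 and 5459.

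Complex IV, cytochrome c oxidase, had the widest spread, since 8 of its 20 nuclear members are alternative isoforms of particular tissues. Over all 20 the medians were 269.7 and 289 TPM in replicates 1 and 2, and over the 12 general subunits they were 546 and 558 TPM. Cox6b1 (716 and 743 TPM), Cox4i1 (715 and 734 TPM) and Cox6c (723 and 686 TPM) were highest, and they did not keep 1 order in both libraries. Ndufa4, named for complex I and now assigned to complex IV, had 584 and 643 TPM. Cox6a1 (568 and 646 TPM), Cox8a (562 and 588 TPM) and Cox5a (530.15 and 529 TPM) formed a second tier, and Cox7c (481 and 509.9 TPM), Cox5b (355 and 408 TPM) and Cox7a2 (313 and 346 TPM) lay below them in both libraries. Cox7b had 226 and 233 TPM. Cox7a2l was the lowest of the 12 genes counted here as general subunits (132 and 140 TPM).

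Complex V, the ATP synthase, had 16 nuclear structural subunits with medians of 426 and 445 TPM in replicates 1 and 2. Atp5b, the catalytic beta subunit, was the most abundant nuclear member of all, with 1848 and 1798 TPM. Atp5a1, the alpha subunit with which it forms the catalytic head, had 674 and 679.6 TPM, so the beta mRNA was above the alpha mRNA in both libraries although the head holds equal numbers of both proteins. The other subunits of the head and its stalk were the gamma subunit Atp5c1 (422 and 409 TPM), the epsilon subunit Atp5e (529 and 542 TPM) and the delta subunit Atp5d (251 and 273 TPM). The peripheral stalk subunits were Atp5h (679.9 and 709 TPM), Atp5j (596 and 635 TPM), Atp5o (473 and 476 TPM) and Atp5f1 (402 and 408 TPM), in the same order in both libraries. Of the small membrane subunits Atp5mpl stood at 430.01 and 481 TPM, Atp5j2 at 369 and 414 TPM and Atp5k at 299 and 333 TPM. Lowest were Atp5g2, 1 of the 3 genes for the c subunit of the membrane ring (150.4 and 143 TPM), and Atp5l, the g subunit (131 and 139.9 TPM). Atp5s, no subunit, had 9.16 and 7.68 TPM.

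The mitochondrial genes had the highest and, among structural subunits other than tissue isoforms, 1 of the lowest deposited levels. The ATP synthase genes led, with mt-Atp6 at 6498 and 5198 TPM and mt-Atp8 at 5633 and 4815 TPM in replicates 1 and 2, the fourth and the fifth most abundant of all genes by mean TPM. Of them mt-Atp6, the a subunit of the proton channel, was above mt-Atp8 in both libraries, but their deposited intervals overlapped in both. These intervals are built around the posterior mean, so that a printed TPM can fall outside its own interval. By posterior mean TPM their order reversed, with a log2 ratio of -0.068 against 0.16 by TPM. Next came mt-Cytb, the only mitochondrial subunit of complex III, with 2556 and 2215 TPM.

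Of the complex IV genes, mt-Co1, which holds the oxygen site, had 1572 and 1390 TPM in replicates 1 and 2. In the same order mt-Co3 had 1051 and 1450 TPM, and mt-Co2, which takes electrons from cytochrome c, had 1034 and 1112 TPM. Deposited intervals were wide for mt-Co3 (470 to 4915 and 831 to 4903 TPM) and mt-Co2 (835 to 2695 and 852 to 2203 TPM). In replicate 1 the lower bound of mt-Co3 was below the TPM of Cox6b1 (716 TPM). The 7 complex I genes ranged widely, since mt-Nd1 had 1987 and 1916 TPM, mt-Nd4 976 and 906 TPM and mt-Nd2 517 and 496 TPM. Below these stood mt-Nd3 (323 and 293 TPM), mt-Nd6, the only mitochondrial member on the other strand (308 and 308 TPM), and mt-Nd5 (297 and 270.5 TPM). The lowest was mt-Nd4l, with 79.9 and 13.3 TPM, from 423.7 and 84.6 counts. Its neighbour mt-Nd4, which it overlaps by 7 bases, was above it by 3.61 and 6.08 in replicates 1 and 2 on the log2(TPM + 0.1) scale.

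When each mitochondrial gene was summed with its nuclear copy, a step chosen after the values were seen, the order changed. The copy held 83.4% and 77.2% of the summed counts for mt-Co3 in replicates 1 and 2, 82.4% and 97.1% for mt-Nd4l, 73.3% and 70.8% for mt-Nd3 and 63.1% and 57.9% for mt-Co2. It held 21.7% and 24.1% for mt-Co1, whose copy covers less of the gene, 6.54% and 15.9% for mt-Atp6, and under 0.03% for mt-Nd2, mt-Nd4 and mt-Nd5. Copies differ in length from their genes, so the summed counts were put on the scale of TPM at the gene's own length. The sums were 6953 and 6183 TPM for mt-Atp6, 6319 and 6363 TPM for mt-Co3 and 2802 and 2643 TPM for mt-Co2. They were 2008 and 1831 TPM for mt-Co1, 1207 and 1004 TPM for mt-Nd3 and 454 and 465 TPM for mt-Nd4l. So mt-Co3 stood beside mt-Atp6, where the deposited row alone put it near mt-Co2, and mt-Co2 was above mt-Co1, where the deposited row put it below. The log2 ratio of mt-Nd4 over mt-Nd4l was 1.03 with copies added, against 4.84 ± 1.74 as deposited (SD, n = 2). Counts were whole numbers (within 0.01) in both libraries for 5 of the 13 genes as deposited and for 11 of 13 as sums. How much RNA came from the copies themselves was not tested.

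**Figure D2:**
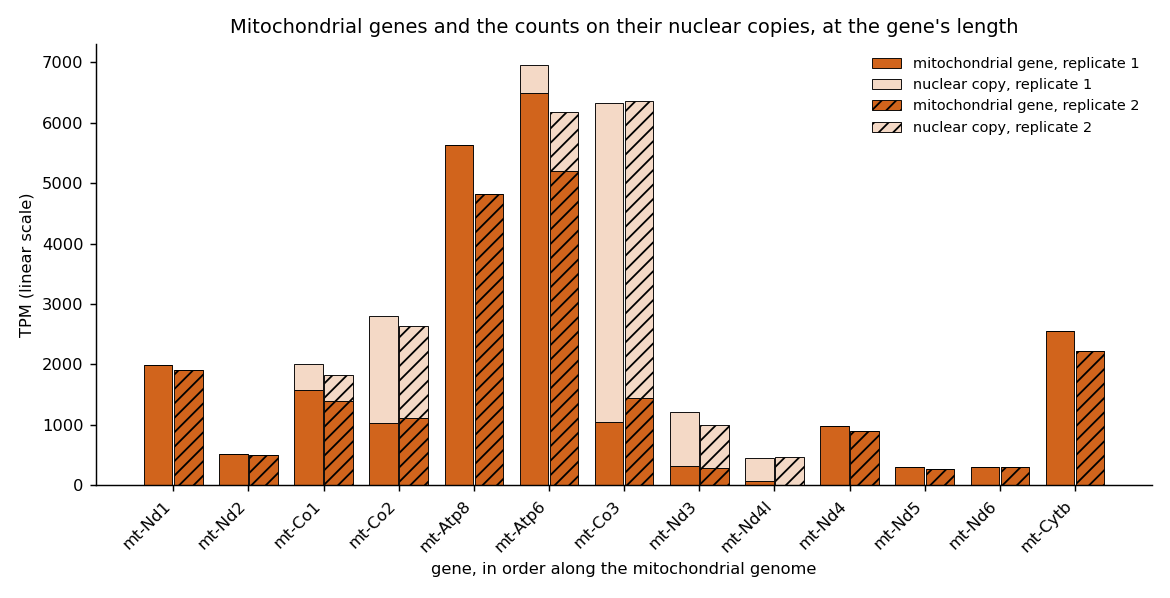
TPM on each mitochondrial gene (dark) and the counts on its nuclear copy put on the same scale at the gene's length (light), stacked, on a linear axis from 0, for replicate 1 (plain, left) and replicate 2 (hatched, right), in order along the mitochondrial genome. For mt-Co3, mt-Nd3, mt-Nd4l and mt-Co2 the light part is the larger in both libraries, and the total for mt-Nd4l is 454 and 465 TPM in replicates 1 and 2 although its dark part is 79.9 and 13.3 TPM.

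Set against each other, nuclear members had medians of 226 and 236 TPM and mitochondrial members 1034 and 1112 TPM in replicates 1 and 2. On the log2(TPM + 1) scale the nuclear median minus the mitochondrial one was -2.19 in replicate 1 and -2.23 in replicate 2, a mean of -2.21 ± 0.03 (SD, n = 2), which makes the mitochondrial median 4.63-fold higher. The difference was far larger than the spread between the libraries, in 2 of 2 libraries, and it had no test. With copies added to the mitochondrial genes only, it was -3.04. The ranges overlapped, since Atp5b was above 9 of the 13 mitochondrial genes by mean TPM.

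By read numbers the 93 nuclear and the 13 mitochondrial genes were closer. Nuclear members took 1.29% of gene counts in replicate 1 (Wilson 95% interval 1.290 to 1.297%) and 1.35% in replicate 2 (1.342 to 1.349%). Mitochondrial members took 1.02% in replicate 1 (1.017 to 1.023%) and 0.936% in replicate 2 (0.933 to 0.939%). Of the members' own counts the mitochondrial genes held 44.1% in replicate 1 (44.0 to 44.2%) and 41.0% in replicate 2 (40.9 to 41.1%), so the share was higher in replicate 1 by more than counting error. With copies added to the mitochondrial genes only, it averaged 51.1%. By complex, nuclear against mitochondrial shares of gene counts were 0.523% against 0.301% for complex V in replicate 1 and 0.536% against 0.246% in replicate 2. For complex III they were 0.115% against 0.184% in replicate 1 and 0.124% against 0.161% in replicate 2, so that mt-Cytb alone held more counts than the 8 nuclear subunits together. These intervals cover counting error only.

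In complex IV 1 form dominated in all pairs but 1. Cox7a2 was 2.42-fold above Cox7a2l, and the other folds were 26.6 or more. Deposited intervals were compared for 9 pairs within complex IV, 3 among the c subunit genes and 2 of mitochondrial neighbours. The mitochondrial neighbours are different subunits. Of these 14 pairs, 13 were apart in both libraries with the same gene on top, in that their intervals did not touch. Intervals apart are not dominance. The c subunit pairs were 2.04-fold to 4.48-fold apart as deposited, and the gap of mt-Nd4 over mt-Nd4l depended on how copies were counted. Cox4i1, the general form of subunit 4, was above Cox4i2, the form known from lung and pericytes, by 8.15 ± 0.29 on the log2(TPM + 0.1) scale (SD, n = 2), with 715 and 734 TPM against 2.80 and 2.14 TPM. Ndufa4 was above Ndufa4l2, known as a hypoxia-induced paralog, by 7.53 ± 0.40, with 584 and 643 TPM against 3.73 and 2.76 TPM. Cox7a2 was above Cox7a1, the heart and muscle form, by 6.68 ± 0.09, with 313 and 346 TPM against 2.82 and 3.42 TPM.

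The testis form Cox6b2 was the most abundant of the alternative forms, with 26.4 and 28.2 TPM in replicates 1 and 2, and Cox6b1 was 26.6-fold above it. Cox8b, a heart and muscle form, and Cox8c, a testis form, had 0 counts in both libraries. Against a limit of 3 counts in each library, Cox8a was at least 1319-fold and 1651-fold higher than Cox8b in replicates 1 and 2, and at least 1891-fold and 2367-fold higher than Cox8c. Cox6a2, a further muscle form, had 2 and 0 counts in replicates 1 and 2, and the testis form Cox7b2 had 0 and 3 counts. Of 6 muscle markers 2 were detected, Tnnt1 at 6.16 and 5.07 TPM and Actc1 at 1.25 and 1.52 TPM, above and below the levels of Cox7a1. The other 4 were below 1 TPM, with Ckm at 0, and the list summed to 8.54 and 7.51 TPM. Of 8 pericyte markers 7 were detected, with a sum of 83.0 and 84.4 TPM, and their part in the low Cox4i2 and Ndufa4l2 levels was not tested.

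The 3 genes for the c subunit encode proteins that are the same once the import signal is removed. Atp5g3 had 634 and 681.5 TPM in replicates 1 and 2, Atp5g1 had 309 and 336 TPM and Atp5g2 had 150.4 and 143 TPM. The log2(TPM + 0.1) ratio was 1.03 ± 0.01 for Atp5g3 over Atp5g1 and 2.16 ± 0.13 for Atp5g3 over Atp5g2 (SD, n = 2). All 3 comparisons depend on how copies are counted. Atp5g2 shares 645 bases without a mismatch with the pseudogene Gm10175, which held 4006 and 4982 counts. With copies added, at the gene's own length, Atp5g2 had 388 and 389.8 TPM, Atp5g1 had 389 and 427 TPM and Atp5g3, which has no such copy, was as before. Atp5g3 was then 1.61-fold above Atp5g1, against 2.04-fold as deposited, and 1.69-fold above Atp5g2, against 4.48-fold. Atp5g1 over Atp5g2 became 0.069 ± 0.090 on the log2 scale (SD, n = 2), within the spread between the libraries.

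**Figure D3:**
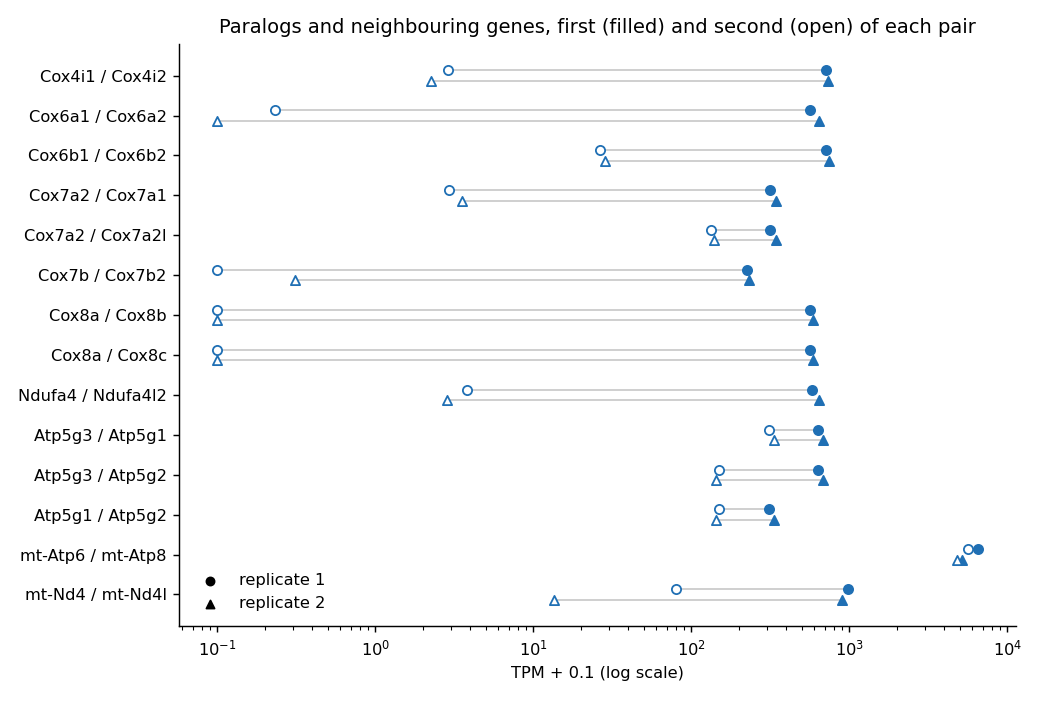
TPM + 0.1, on a log axis, of the genes of each pair, with the gene named before the slash filled and the gene after it open, for replicate 1 (circles) and replicate 2 (triangles). Points at the left edge are genes with 0 TPM. The complex IV pairs other than Cox7a2 and Cox7a2l are far apart, from 26.6-fold for Cox6b1 over Cox6b2 upward, and mt-Atp6 and mt-Atp8 are close together.

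Nuclear members had copies as well. Of 93 nuclear members, 21 had an annotated pseudogene copy by the same rule, and in 5 more than 10% of the summed counts lay on copies. For Atp5l the copies held 76.2% and 76.8% in replicates 1 and 2, nearly all on Gm10221, which matched over 309 bases with 0 mismatches. For Ndufb4 they held 75.8% and 74.96%, all on Ndufb4c, which matched over 390 bases with 0 mismatches. The others were Atp5g2 (61.2% and 63.4%), Atp5g1 (20.7% and 21.4%) and Cox7c (15.1% and 16.4%). With copies added, at the gene's own length, Atp5l had 549 and 603 TPM and Ndufb4 had 199 and 192 TPM, so neither stayed among the lowest subunits of its complex. Expected counts were fractional, as when a read is divided among genes, in 38 of the 102 detected members, against 27.1% of detected protein-coding genes.

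In the transcript tables all 63 detected nuclear members with at least 2 transcripts had 1 leading transcript that did not change between the libraries, against 91.4% of such genes in all. At 10 TPM or more in both libraries it was 62 of 62 members, against 94.7% of such genes. The leading transcript took over 90% of its gene in both libraries for 30 of 63 members. For 67 of 89 detected nuclear members at least 90% of TPM lay on transcripts annotated as protein-coding. For 11 it was under 60%, namely Ndufa5, Ndufa10, Ndufb4, Atp5f1, Atp5j, Cox5b, Ndufaf4, Cox7b, Ndufaf8, Ndufc1 and Ndufab1. Shares over all genes were not computed for the counts of 30, 67 and 11, so whether they are usual was not tested. Unless stated otherwise, the orders within complexes given above count all transcripts of a gene. In Ndufa5 a processed transcript without a reading frame took 91.8% and 95.9% in replicates 1 and 2, so its protein-coding part was 11.8 and 8.24 TPM of a total of 197 and 199 TPM. In Atp5f1, the b subunit, a transcript annotated for nonsense-mediated decay took 70.7% and 69.2%. In Atp5j, which forms part of the stalk, a retained-intron transcript took 63.7% and 61.9%. Short transcripts that overlap a coding one weigh heavily in TPM, and whether these RNAs were present at such levels was not tested.

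**Figure D4:**
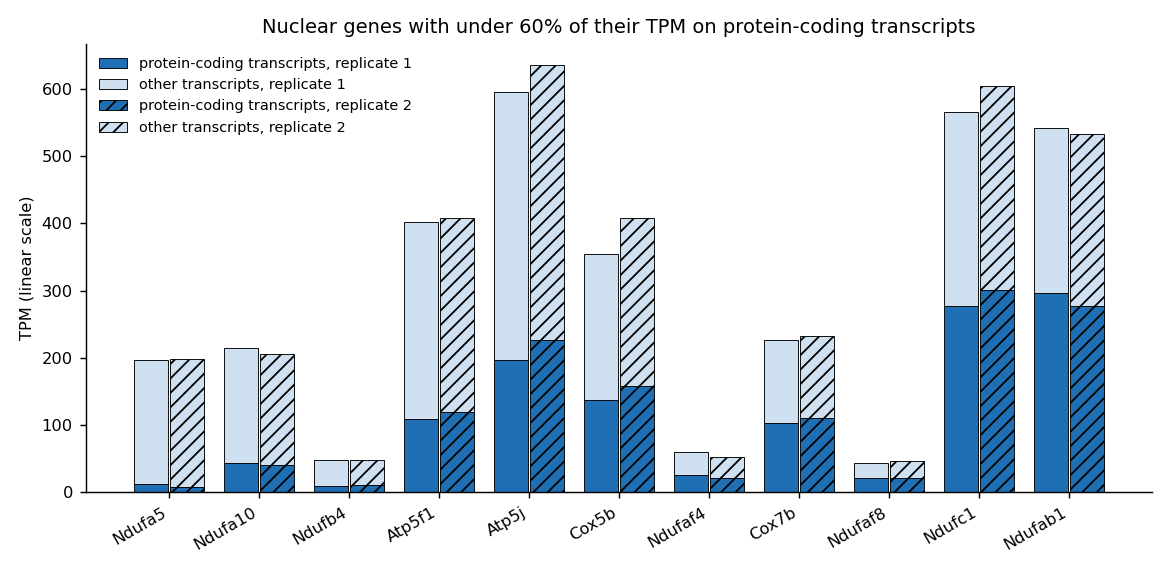
TPM of the 11 nuclear genes with under 60% of their TPM on protein-coding transcripts, split into that part (dark) and all other transcripts (light), on a linear axis from 0, for replicate 1 (plain, left) and replicate 2 (hatched, right). Ndufa5 has 11.8 and 8.24 TPM in the dark part in replicates 1 and 2, and the split is alike in both libraries for every gene shown.

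A pair of members had known protein forms that the tables separate. Ndufv3, an accessory subunit of complex I with a short and a long form, had 90.4% in each library on a transcript with 104 codons and 8.97% and 9.12% on one with 468 codons in replicates 1 and 2. The long form thus had 16.7 and 17.9 TPM. Atp5c1, whose coding ends differ by alternative splicing, had 90.8% and 93.9% on a transcript with 298 codons and 7.79% and 4.44% on one with 297 codons.

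The libraries differed little for these genes. For each of 17148 genes, the division of its rounded counts between replicate 1 and replicate 2 was set against the scaled library sizes in an exact binomial test (two-sided, with Benjamini-Hochberg adjustment over these genes). This test compares 2 libraries, not conditions. At an adjusted p under 0.05 and at least 2-fold, 1 of 102 tested members was called, against 2.94% of all tested genes, made up of 1.56% higher and 1.38% lower in replicate 1. Of detected protein-coding genes 0.184% were called. It was mt-Nd4l, higher in replicate 1 by 2.55 on the log2 scale (exact binomial test, adjusted p = 4.34e-66). Its deposited intervals overlapped, running from 24.5 to 289 TPM in replicate 1 and from 1.55 to 75.7 TPM in replicate 2. Summed with Gm10222 it had 2405 and 2951 counts in replicates 1 and 2, the log2 ratio was -0.047 and the call was gone (exact binomial test, adjusted p = 0.380). The other 101 tested members were within 1.5-fold, a share near that of other detected protein-coding genes (12210 of 12394). Of these 101 members mt-Co3 was farthest below 0, at -0.47 (exact binomial test, adjusted p = 2.32e-287), and at -0.021 when summed with Gm28437.

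Small differences had a pattern by genome. With no minimum fold, 58 of 102 members had an adjusted p under 0.05, against 35.5% of tested genes, and of these 16 were higher and 42 lower in replicate 1. Deposited intervals did not overlap between the libraries for 42 of 102 detected members, against 24.2% of detected protein-coding genes. At high counts small differences pass, and these shares were not tested against each other. Nuclear members had a median log2 ratio of -0.07, with 21 above 0 and 68 below, and mitochondrial members one of 0.12, with 10 above 0 and 3 below, against -0.01 for all tested genes. The signs of both medians were the same under the 3 other scalings, and with spike-in totals, the farthest of these, they were -0.12 and 0.07. Summed with their copies the mitochondrial genes ran from -0.047 for mt-Nd4l to 0.26 for mt-Nd3, with mt-Cytb at 0.20 and mt-Nd1 at 0.04.

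Among nuclear members the short genes carried the shift. Of 44 detected members under 700 bases, 42 were lower in replicate 1 (median log2 ratio -0.11), and of 45 longer ones 26 were lower (median -0.02). The lowest nuclear ratio was that of Ndufa3, an accessory subunit of complex I, with 1647 and 2518 counts in replicates 1 and 2 (log2 ratio -0.36, exact binomial test, adjusted p = 4.88e-14). Among those past the adjusted p, Uqcr11, of complex III, followed with -0.26 (exact binomial test, adjusted p = 4.54e-12). The same was seen outside the members, since of 339 other detected protein-coding genes under 700 bases 254 were lower in replicate 1 (median -0.09), and of 12055 longer ones 6208 were (median -0.01). The part of RNA or fragment length in this was not tested.

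**Figure D5:**
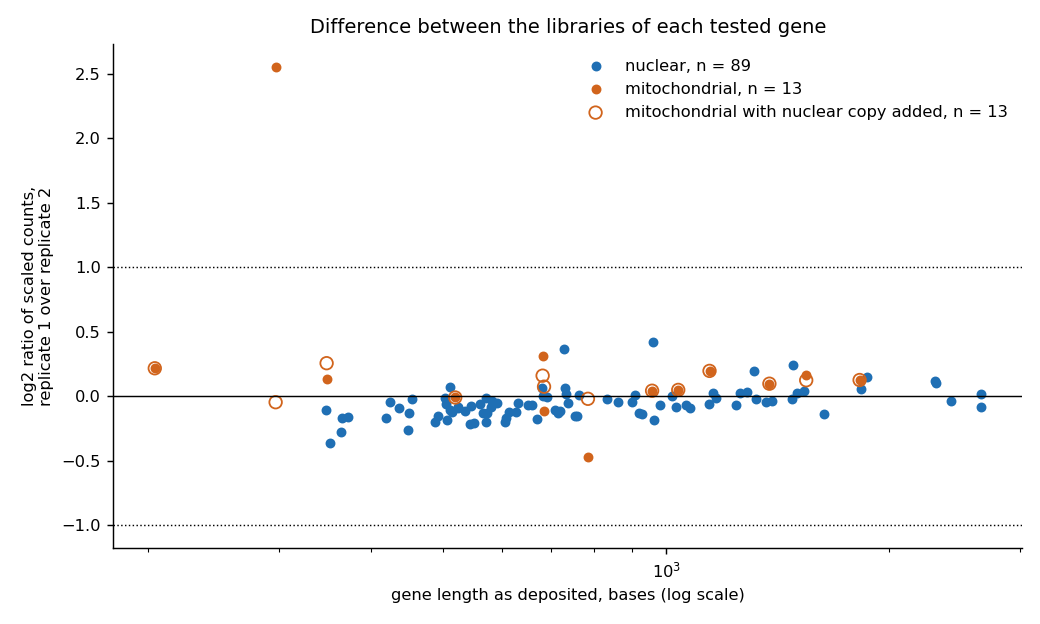
Log2 ratio of TMM-scaled counts, replicate 1 over replicate 2, against gene length on a log axis, for 89 nuclear (blue) and 13 mitochondrial (orange) tested members, with open circles for mitochondrial genes summed with their copies and dotted lines at 2-fold. mt-Nd4l stands alone at 2.55 and its sum at -0.047, and most nuclear points under 700 bases lie below 0.

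Promoter sequence of nuclear members was searched for elements known from respiratory genes, since these genes stood high together and are known to share regulators. RefSeq windows (GRCm38.p6) of 300 bases, 250 before and 50 after a start, matched 74 of 93 nuclear members and 27025 genes in all. The element of NRF1, nuclear respiratory factor 1, written GCGCANGCG and read on both strands, was in 22 of 74 members (29.7%), against 7.03% of all genes and 15.6% of 9823 detected protein-coding genes with a window. The ETS element bound by GABP, also called NRF-2, written CCGGAAG, was in 18 (24.3%), against 9.93% and 20.2%. The YY1 element AAGATGGCG was in 8 (10.8%), against 1.64% and 3.60%. The estrogen-related receptor element TCAAGGTCA was in 2 (2.70%), Sdhd and Atp5g3, against 0.466% and 0.305%. The SP1 element GGGGCGGGG was in 11 (14.9%), against 12.9% and 25.4%, TGACGTCA in 4 (5.41%), against 2.03% and 3.75%, and TATAAA in 7 (9.46%), against 15.7% and 8.38%. By complex, NRF1 matches were in 8 of 32 windows of complex I subunits, 2 of 3 of complex II, 2 of 5 of complex III, 1 of 14 of complex IV and 7 of 13 of complex V. Median GC content was 58.3% for members, 52.8% for all genes and 61.3% for detected protein-coding genes. Such a match describes letters only, and binding was not measured.

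Both NRF1 and ETS matches were in 6 members, with 20 bases between the nearest matches in Atp5l, 24 in Sdhd, 52 in Atp5k, 54 in Uqcr11, 92 in Cox6a1 and 94 in Atp5h. The share of all genes with both was not computed, so whether the 2 elements occur together more often in members was not tested. The windows of Sdhd and Atp5k are shown with the matches in capitals, as an example each from complex II and complex V. That of Sdhd is mm10 chr9:50603800-50604099 (minus strand), and that of Atp5k, the e subunit of the ATP synthase, is mm10 chr5:108434350-108434649 (minus strand). Matches on both strands were counted and may overlap, and the ETS element reads CTTCCGG on the other strand.
Sdhd: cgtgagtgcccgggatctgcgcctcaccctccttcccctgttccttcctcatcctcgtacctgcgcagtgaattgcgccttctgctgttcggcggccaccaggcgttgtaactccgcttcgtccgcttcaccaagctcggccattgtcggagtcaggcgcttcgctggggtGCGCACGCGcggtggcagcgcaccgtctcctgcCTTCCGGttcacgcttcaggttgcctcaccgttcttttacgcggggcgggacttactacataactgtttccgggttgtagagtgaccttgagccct
Atp5k: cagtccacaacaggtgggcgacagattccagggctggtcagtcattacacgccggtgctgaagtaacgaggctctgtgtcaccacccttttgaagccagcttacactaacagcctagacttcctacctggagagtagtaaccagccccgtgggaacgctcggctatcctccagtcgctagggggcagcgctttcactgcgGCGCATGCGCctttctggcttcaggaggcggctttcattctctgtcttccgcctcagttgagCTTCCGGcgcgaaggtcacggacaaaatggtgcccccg
Sdhd had 209 and 203 TPM in replicates 1 and 2 and Atp5k had 299 and 333 TPM, while Atp5b, the highest nuclear member, had neither element in its window.

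Genes around the members were lower. Over 9 lists of 110 symbols, 106 were found, 102 of them were detected, and the median was 30.7 TPM, against 226 and 236 TPM for nuclear members in replicates 1 and 2. Of 104 tested between the libraries, 0 were called at 2-fold by the exact binomial test. Of all tested genes 2.94% were called and of detected protein-coding genes 0.184%, so 0 is near the latter share. The subunit and carriers that the name rule leaves out were Cyc1 (254 and 263 TPM) and Cycs, somatic cytochrome c (59.2 and 62.65 TPM), while the testis cytochrome c Cyct had 0.07 and 0.06 TPM. Atpif1, an inhibitor of the ATP synthase, was the highest gene of all lists (823 and 782 TPM), and Uqcc2, an assembly factor of complex III, had 241 and 256 TPM. The next were Uqcc1 (64.0 and 57.6 TPM), of the same function, and the ATP synthase assembly genes Tmem70 (55.8 and 54.0 TPM) and Atpaf1 (30.6 and 37.2 TPM).

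All 8 other complex I assembly genes were detected, led by Dmac1 (86.2 and 93.1 TPM), Tmem126b (42.9 and 41.7 TPM) and Acad9 (31.75 and 29.7 TPM). All 4 complex II factors were detected, led by Sdhaf4 (74.5 and 73.45 TPM), with Sdhaf2 (23.6 and 22.3 TPM) and Sdhaf1 (16.7 and 16.9 TPM) next. Of 21 complex IV assembly genes 20 were detected, led by Coa3 (168 and 164 TPM), Cox16 (120 and 107 TPM) and Cox14 (103 and 108 TPM), and Pet117 had 0.23 and 0 TPM. Of 16 electron carriers and enzymes of ubiquinone and electron transfer 15 were detected, with the flavoproteins Etfb (139.5 and 148 TPM) and Etfa (114 and 109 TPM) highest and the ubiquinone enzyme Coq7 next (75.4 and 84.5 TPM). All 8 genes of supercomplexes and cristae were detected, led by the prohibitins Phb2 (262 and 271 TPM) and Phb (145 and 147 TPM) and the cristae gene Immt (138 and 151 TPM).

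Of 25 genes that express or copy the mitochondrial genome all were detected, led by Slirp (215 and 234 TPM), which stabilizes mitochondrial mRNA, Ssbp1 (145 and 139 TPM), the single-stranded DNA binding protein, and Hsd17b10 (123 and 122 TPM), part of mitochondrial RNase P. The polymerase Polrmt had 22.3 and 24.2 TPM and the packaging factor Tfam 81.95 and 75.35 TPM. Of 13 nuclear regulators 11 were detected, led by Gabpb1 (71.7 and 67.7 TPM), Nrf1 (58.0 and 59.3 TPM) and Creb1 (53.4 and 45.05 TPM). The coactivator Ppargc1a had 1.95 and 2.44 TPM and the receptor Esrra 2.08 and 2.31 TPM, while Ppargc1b (0.93 and 0.74 TPM) and Esrrb (0.98 and 0.76 TPM) were below 1 TPM in both libraries. Pprc1, of the same coactivator family, had 28.55 and 36.85 TPM.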

How the data were processed

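Expected counts, TPM and FPKM per gene and per transcript were deposited by the authors for each library, with posterior mean TPM, interval bounds of TPM, used here as a signal per gene whose confidence level no source gives, and the percent of a gene that each transcript takes. Per the file headers an expected count is an estimated count and need not be whole. The accompanying notes name assembly mm10 and annotation M4. Aligner, quantifier, versions and strand use: not given in the sources used here. Overlapping and antisense genes are therefore uncertain. Per the labels' protocols 10 ng of RNA longer than 200 nt with ERCC spike-ins entered each library, and the labels cite a Smart-seq protocol, in which cDNA is amplified. Reads are therefore not separate molecules, and the Wilson intervals cover counting error only. Tables held 41760197 and 49256468 expected counts in replicates 1 and 2, of which 6.89% and 6.66% were on spike-ins, and over the counts on genes 3 counts correspond to 0.0772 and 0.0653 CPM. Rows that name no gene held 4.44 and 13.25 counts and were left out.

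Symbols, biotypes, transcript types and coordinates (1-based, mm10) came from GENCODE M21, a later annotation than the one used for counting, by identifier without version. The members, gene lists, pairs and motifs were chosen with earlier results of these data known. Any member may be named. The rule asks for the 3 highest and 3 lowest structural subunits of each complex, both genes of each pair, all mitochondrial genes, called members and those under 1 TPM, and of each list the 3 highest and any under 1 TPM. Complexes and roles were assigned by hand from textbook knowledge. The symbols Coa1, Prorp, Fastkd4 and Micos10 had no match, and Tbrg4, an older name of Fastkd4, is listed. Of pseudogene rows that match the name pattern, 11 were left out.

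Copies were found by aligning members' protein-coding transcripts to annotated pseudogene transcripts on the same strand with blastn 2.17.0 (at least 95% identity over 100 bases). Copies were added as counts, at the TPM per count of the member itself. The binomial test used counts rounded to whole numbers, TMM factors from edgeR 4.0.16 (R 4.3.3), a minimum summed count of 20 and a prior count of 1. It was tested on simulated data with sampling noise only. Such data cannot show how it behaves on amplified reads or on reads divided among copies. DESeq2 1.42.0 size factors were an alternative. Python 3.11.15, pandas 2.3.3, numpy 2.4.6, scipy 1.17.1 and matplotlib 3.10.9 were used. Other alternatives were posterior mean TPM, FPKM, other pseudocounts, filters and thresholds, total and spike-in scaling, summed copies, and each library left out.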

Additional observations from a re-analysis of the deposited data

How the results depend on the processing

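No paired analysis was possible because the study has 1 group. The nuclear minus mitochondrial difference (-2.21) became -2.62 with posterior mean TPM, -2.05 over structural subunits, -2.17 over detected members and -2.48 with means. It was -3.04 with copies added to the mitochondrial genes only and -2.32 over protein-coding transcripts, and ran from -2.23 to -2.19 with either library left out. The mitochondrial share of gene counts (0.978%) became 1.38% with copies, 1.20% with rRNA and tRNA genes and 2.54% by TPM. How far levels of mitochondrial genes, mt-Nd6 among them, depend on poly(A) tails in library making was not tested. The mitochondrial share of the members' counts (42.6%) became 44.96% by TPM or FPKM and 51.1% with copies added to the mitochondrial genes only. By FPKM, another scale, nuclear medians of complexes I to V were 135, 139.8, 214.5, 180.5 and 281. Over protein-coding transcripts complexes I, IV and V had 182, 142 and 403 TPM. Complex V had 465 TPM with copies added and 456 TPM over members with whole counts. Complex IV (279.5 TPM) had 552 TPM without alternative isoforms and 3.58 TPM over members with whole counts, most of which are those isoforms. Members called between the libraries numbered 58 with no minimum fold, 0 with copies added and 0 over genes with whole counts, where mt-Nd4l is not tested. Adding copies turned mt-Nd4l to -0.047, and the posterior mean turned mt-Atp6 over mt-Atp8 to -0.068. Detection of members and lists, pairs separated, leading transcripts and NRF1 and ETS matches stayed within 1.5 times under every alternative run for them. Copies, isoforms and protein-coding transcripts were alternatives chosen after seeing the data.

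Counting error is small for most members and large for those with under 100 counts in both libraries. These are Cox4i2, Cox7a1, Ndufa4l2, Cox6a2, Cox7b2, Cox8b and Cox8c. In replicate 2 mt-Nd4l had 84.6 counts as deposited. For members with identical copies the division of reads among rows, not depth, limits the level. With 2 pools an SD rests on 2 values, and whether the pools' spread is biological or technical was not tested.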
